A study of Mus musculus with 24 samples.

Results

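The subunits of the mitochondrial respiratory chain were examined in mouse lung RNA from mice lacking interleukin 13 (IL-13 KO) and wild-type mice (WT), each labelled HDM (commonly house dust mite, an allergen) or PBS (commonly phosphate-buffered saline). The members were all genes whose symbol begins with Nduf followed by a subunit letter (a, b, c, s or v) and a number, with Uqcr, with Cox followed by a number of the nuclear-encoded complex IV series, or with Atp5, and that had a probe set annotated to them alone. This gave 77 of the 18193 genes named on the arrays, with 155 probe sets. They comprised 35 genes of complex I, 8 of complex III, 17 of complex IV and 17 of the ATP synthase. Each gene was represented by its probe set with the highest mean signal over the 12 samples. Of the 77, 75 passed a filter on low signal. Cox7c, a general complex IV subunit, and Cox7b2, a testis isoform, lay under it, and with no filter neither was called between HDM and PBS, with log2 differences of -0.35 in KO and -0.78 in WT for Cox7c (limma, adjusted p = 0.69 and 0.34) and 0.34 in KO and 0.89 in WT for Cox7b2 (adjusted p = 0.78 and 0.42).

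The 4 groups were IL-13 KO given HDM, WT given HDM, IL-13 KO given PBS and WT given PBS, with 3 samples each. The RNA of each sample was read on 1 array of set A and 1 of set B, which carry different probe sets, so 24 arrays represent 12 samples. Not given in the sources used here were the strain, age and sex of the mice, the dose, route and timing of HDM, and whether each sample was a mouse of its own. The p-values therefore measure spread between samples, which may be technical. IL-13 is a signalling protein of allergic inflammation, and the design compares the lung's response to HDM in its presence and absence. The signals are the linear intensities deposited by the authors, which had a trimmed mean of 150 on each array. The 1 probe set of Il13, the deleted gene, lay under the filter on low signal, at 8.71, 13.6 and 15.5 in KO HDM samples, 29.9, 16.0 and 15.5 in WT HDM samples, 3.30, 9.45 and 8.66 in KO PBS samples and 4.65, 12.1 and 5.05 in WT PBS samples. The genotypes overlapped within each treatment, and whether the probe set lies in the deleted part is not given in the sources used here, so it does not check the labels. Markers of alveolar type 2 cells, which make surfactant, had summed signals of 26589 to 28310 in KO HDM, 23363 to 29484 in WT HDM, 23954 to 28787 in KO PBS and 27129 to 28992 in WT PBS samples. Transcripts of other tissues differed between the samples. Tnnc2, a skeletal muscle troponin, had signals of 198 and 988 in WT HDM replicates 1 and 2 and 413 in WT PBS replicate 2, and below 10 in the other 9 samples.

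Complexes I, III and IV pass electrons from NADH to oxygen in the inner mitochondrial membrane and pump protons across it, and the ATP synthase, also called complex V, uses the resulting gradient to make ATP. Each complex combines a few catalytic subunits with many small accessory ones, and for complex IV some small subunits exist as general and tissue-specific isoforms. The lung mixes cell types with different mitochondrial content, so in these bulk samples a change in the number of cells of a type and a change in RNA per cell cannot be told apart.

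On the chosen probe sets, 10 of the 75 tested members were called higher in HDM than in PBS samples in at least 1 genotype. None was called lower, and the chosen probe sets of the other members did not pass the test in either genotype. In IL-13 KO lungs 4 of 75 members were called higher by limma at an adjusted p of 0.05 (5.33%), against 5.77% of all 14480 genes, and in WT lungs 9 of 75 (12%), against 5.48% of all genes. Called lower were 0 members in either genotype, where 5.33% of all genes were called lower in KO lungs and 5.18% in WT lungs. At an unadjusted p under 0.05 by limma stood 21 members in KO lungs (28%), against 25.7% of all genes, and 27 in WT lungs (36%), against 24.1% of all genes. A single one of these was lower in each genotype, Cox7a1 in KO lungs and Ndufb8 in WT lungs. At the adjusted threshold the share called higher was thus near the background in KO lungs and above it in WT lungs. At an unadjusted p under 0.05 by limma, 20 members in KO lungs and 26 in WT lungs were higher. Of the 14480 genes 1877 and 1693 were, so on this measure the members lay above the background in both genotypes. With the mean of all probe sets of a gene, 9 members were called in KO lungs. Atp5md, Ndufa1 and Ndufb5 were called in both genotypes, and 10 members in at least 1. The matching shares of all genes are not given here, so these last counts only describe the members.

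The members' estimates lay more often above 0 than those of genes in general. In KO lungs 59 of 75 differences between HDM and PBS were above 0 (78.7%), against 50.9% of all genes, with a median log2 difference of 0.16 over the members and 0.01 over all genes. In WT lungs 66 of 75 were above 0 (88%), against 49.7% of all genes, with medians of 0.25 and -0.00. All 3 HDM samples lay above all 3 PBS samples for 24 members in KO lungs (32%), against 17.2% of all genes, and for 26 in WT lungs (34.7%), against 13.3% of all genes. The reverse held for 2 members in each genotype, where 17.3% of all genes in KO lungs and 14.5% in WT lungs lay lower without overlap. These were Cox7a1 and the catalytic complex I subunit Ndufv1 in KO lungs, and Ndufb8 and the testis isoform Cox6b2 in WT lungs, named here after their values were seen. Members share their samples and are not replicates of a treatment, so these shares describe the set.

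The WT count rested on single samples more than the KO count did. It was 3 without WT HDM replicate 3, 4 without WT HDM replicate 2, 4 without WT PBS replicate 3 and 5 without WT PBS replicate 2, and the KO count was 7 without WT HDM replicate 3, since all groups share 1 estimate of the spread. How the calls over all genes changed with the same samples left out is not given here. The lower counts therefore cannot be read as particular to the members. Without WT HDM replicate 3 the WT median was 0.13 in place of 0.25. The 3 samples with skeletal muscle signal were all WT, and WT HDM would hold replicate 3 alone without them.

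Averaged over the 75 members, the deviation from each gene's 12-sample mean was 0.06, 0.02 and 0.09 on the log2 scale in KO HDM samples, against -0.02, -0.11 and -0.18 in KO PBS samples. In WT HDM samples it was -0.01, 0.17 and 0.32, against -0.00, -0.11 and -0.22 in WT PBS samples. The KO groups did not overlap. The WT groups overlapped by 1 sample, since WT HDM replicate 1 lay just below WT PBS replicate 1, and WT HDM replicate 3 was the highest of all 12. Actin probe sets near the 5′ and 3′ ends of the transcript gauge RNA integrity, and their signal ratio (5′ over 3′) was 0.464 to 0.656 in KO HDM, 0.695 to 0.832 in WT HDM, 0.748 to 0.854 in KO PBS and 0.409 to 0.898 in WT PBS samples, on the arrays that carry most members. On these arrays, those of set A, the actin ratio was lower in all KO HDM than in all KO PBS samples. On set B the groups overlapped, since KO HDM replicate 2 (0.612) lay just above KO PBS replicate 2 (0.610). On set A the ratio for Gapdh, another control gene, was 1.04 to 1.16 in KO HDM and 1.05 to 1.20 in KO PBS samples. It was 1.09 to 1.16 in WT HDM and 1.04 to 1.24 in WT PBS samples, so all groups overlapped. The part of RNA integrity in the KO difference between HDM and PBS was not tested. Leaving out the 2 samples with the lowest actin ratio, KO HDM replicate 1 and WT PBS replicate 2, gave medians of 0.17 in KO lungs and 0.27 in WT lungs and counts of 3 and 3.

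**Figure D1:**
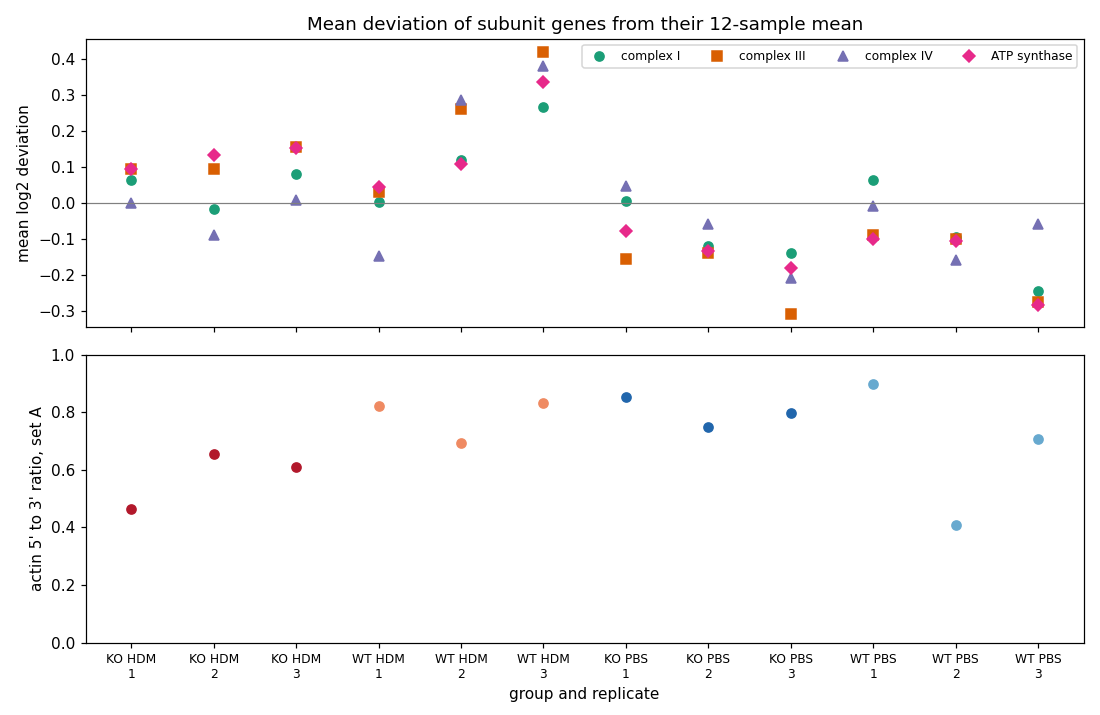
Mean log2 deviation of the tested members of each complex from their 12-sample mean (upper panel) and the 5′ to 3′ actin signal ratio (lower panel), for each of the 12 samples along the x axis. WT HDM replicate 3 was the highest sample for all 4 complexes, WT HDM replicate 1 was at -0.15 for complex IV and above 0, by at most 0.05, for the other 3, and the actin ratio was lowest in WT PBS replicate 2 (0.409) and KO HDM replicate 1 (0.464).

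Promoter sequences were available from RefSeq (GRCm38.p6) for 63 of the 77 members, and the 250 bases before each transcript start in that table were searched, a gene being counted when any of its windows held the letters. The 14 members without an entry were Atp5a1, Atp5mpl, Cox4i1, Cox4i2, Cox6a2, Cox6c, Cox8c, Ndufa2, Ndufa4l2, Ndufb9, Ndufs1, Uqcrb, Uqcrc2 and Uqcrq. The core letters of the motif of NRF1, a regulator of nuclear genes for mitochondrial proteins, were searched on both strands as GCGCA, any base and GCGC and stood in 9 of 63 members (14.3%), against 1144 of 27025 genes (4.23%). The letters CCGGAAG, the core recognised by ETS factors such as GABP, stood on either strand in 11 of 63 members (17.5%), against 2115 of 27025 genes (7.83%). Member windows also held more G and C, with a median of 56.2% against 52.4% and a median of 14 CG dinucleotides against 6, a base composition that moves with both motifs, and its part in these shares was not tested. The 27025 genes outnumber the 18193 named on the arrays, and the shares among measured genes are not given here. A match is a description of letters and not a binding site.

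Shown here are the windows of the 3 members called in both genotypes (Ndufa1, Ndufb5 and Atp5md), of Atp5h, which was called in WT lungs and holds both motifs, and of Cox8b, a muscle and brown fat isoform with few CG dinucleotides. They run 5′ to 3′ toward the transcript start, which for Ndufb5 lies just inside the gene as annotated, at chrX:37191239-37191488 (minus strand) for Ndufa1, chr3:32736813-32737062 (plus strand) for Ndufb5, chr19:47090648-47090897 (minus strand) for Atp5md, chr11:115419920-115420169 (minus strand) for Atp5h and chr7:140900447-140900696 (minus strand) for Cox8b. Capitals mark the NRF1 letters, which begin 141 bases before the start of Atp5h, and the ETS letters, read on the other strand, which begin 38 bases before it.
Ndufa1: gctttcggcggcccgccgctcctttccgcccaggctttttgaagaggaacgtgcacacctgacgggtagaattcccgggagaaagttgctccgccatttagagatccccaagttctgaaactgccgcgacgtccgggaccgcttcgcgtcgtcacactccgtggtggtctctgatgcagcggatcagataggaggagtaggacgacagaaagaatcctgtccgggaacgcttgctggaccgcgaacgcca
Ndufb5: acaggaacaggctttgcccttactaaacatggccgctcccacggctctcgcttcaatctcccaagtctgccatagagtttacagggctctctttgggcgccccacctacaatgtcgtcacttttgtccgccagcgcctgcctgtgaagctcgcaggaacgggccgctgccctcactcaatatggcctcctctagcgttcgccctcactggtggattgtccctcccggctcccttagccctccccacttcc
Atp5md: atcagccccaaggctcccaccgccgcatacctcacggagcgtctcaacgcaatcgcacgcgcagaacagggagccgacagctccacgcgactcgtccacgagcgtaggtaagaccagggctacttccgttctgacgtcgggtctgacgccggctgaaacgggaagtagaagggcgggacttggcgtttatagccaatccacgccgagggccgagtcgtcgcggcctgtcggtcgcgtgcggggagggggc
Atp5h: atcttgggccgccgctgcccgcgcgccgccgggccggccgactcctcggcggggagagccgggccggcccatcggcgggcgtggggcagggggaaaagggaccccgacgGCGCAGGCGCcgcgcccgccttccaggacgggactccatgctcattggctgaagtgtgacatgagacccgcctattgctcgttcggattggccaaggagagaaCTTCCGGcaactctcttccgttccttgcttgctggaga
Cox8b: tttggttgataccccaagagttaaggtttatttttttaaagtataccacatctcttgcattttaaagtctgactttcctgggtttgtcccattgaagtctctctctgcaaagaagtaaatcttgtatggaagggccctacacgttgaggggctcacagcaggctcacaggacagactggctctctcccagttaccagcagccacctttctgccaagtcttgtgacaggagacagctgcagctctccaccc
The windows of Ndufa1, Ndufb5 and Atp5md, which moved together, hold neither motif as spelled here and 25, 13 and 32 CG dinucleotides, that of Atp5h holds 29, and that of Cox8b holds 1.

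Complex I, the NADH dehydrogenase, had the most members and the smallest typical difference. Of 35 members 2 were called higher in KO lungs and 3 in WT lungs, against 5.77% and 5.48% of all genes. The KO count was thus near the background. The median log2 differences were 0.11 in KO and 0.21 in WT. The 6 core members, most of which carry the flavin or iron-sulfur clusters, had medians of 0.08 in KO and 0.03 in WT, and the 29 accessory members 0.11 and 0.22. This division and those of the other complexes were made after the values were seen and are descriptive.

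Ndufa1, a small accessory subunit needed for complex I assembly and encoded on the X chromosome, had signals of 1591, 1476 and 1726 in KO HDM samples, against 1019, 1051 and 1035 in KO PBS samples. The WT HDM samples had 1320, 1488 and 1755, against 1055, 969 and 937 in WT PBS samples. Every HDM sample of both genotypes lay above every PBS sample. The log2 difference ± standard error was 0.62 ± 0.11 in KO (limma, adjusted p = 0.0055) and 0.61 ± 0.11 in WT (adjusted p = 0.0057), and both calls held in all 24 alternative analyses. Ndufb5, an accessory subunit of the membrane arm, had signals of 656, 681 and 705 in KO HDM samples, against 559, 482 and 544 in KO PBS samples. Signals in WT HDM samples were 654, 696 and 733, against 542, 514 and 511 in WT PBS samples. The groups again did not overlap, with a tight spread in each. The difference was 0.36 ± 0.10 in KO (limma, adjusted p = 0.038) and 0.40 ± 0.10 in WT (adjusted p = 0.025), and these calls held in 11 and 15 of the 24 alternatives. The KO call was lost without any 1 of the 6 KO samples or WT HDM replicate 2 (adjusted p from 0.056 to 0.13), and the WT call without any 1 of WT HDM replicates 2 and 3 and WT PBS replicates 2 and 3 (adjusted p from 0.064 to 0.098).

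Ndufa4, first named as a complex I subunit and later found in complex IV, had signals of 1093, 873 and 1133 in KO HDM samples, against 773, 739 and 765 in KO PBS samples. Among WT samples, those given HDM had 900, 1134 and 1182, against 857, 622 and 600 in WT PBS samples. Neither pair of groups overlapped, although WT HDM replicate 1 and WT PBS replicate 1 lay close together. The difference was 0.43 ± 0.16 in KO, which was not called (limma, adjusted p = 0.12), and 0.63 ± 0.16 in WT (adjusted p = 0.027). The WT call held in 17 of 24 alternatives and was lost, with adjusted p from 0.09 to 0.11, without any 1 of WT HDM replicates 2 and 3 and WT PBS replicates 2 and 3. Its paralog Ndufa4l2, known as a gene induced by low oxygen, was not called and had differences of -0.18 in KO and -0.27 in WT (limma, adjusted p = 0.65 and 0.51). Among the core subunits Ndufv2, which carries an iron-sulfur cluster, had the largest estimates, 0.38 in KO and 0.41 in WT, and its chosen probe set missed the threshold in both (limma, adjusted p = 0.077 and 0.063). The catalytic subunits Ndufv1 and Ndufs1 had differences of -0.18 and -0.00 in KO and 0.02 and -0.06 in WT.

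**Figure D2:**
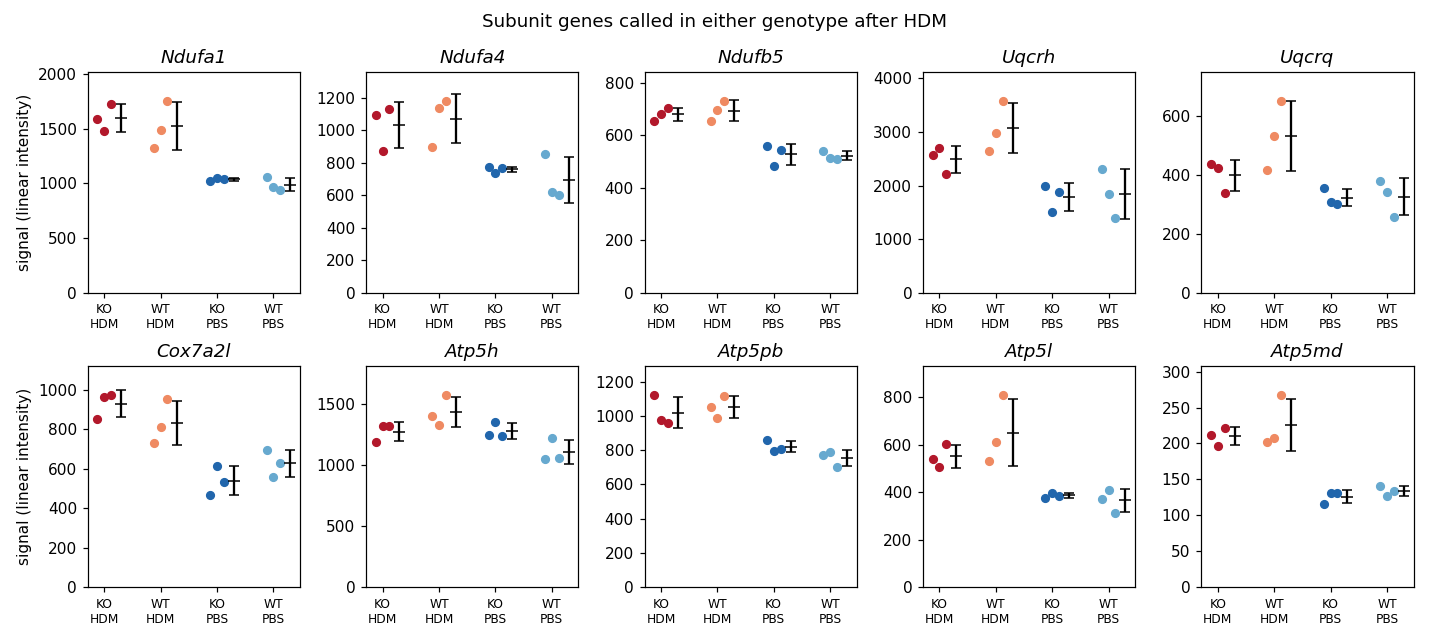
Linear signal of the 10 members called in at least 1 genotype, by group along the x axis, with 1 point per sample and the mean ± SD of 3 samples beside them. Ndufa1, Ndufa4, Ndufb5, Cox7a2l, Atp5pb, Atp5l and Atp5md had every HDM sample of both genotypes above every PBS sample of both. Atp5h and Uqcrq had overlapping KO groups.

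Complex III, which takes electrons from ubiquinol to cytochrome c, had all 8 members above 0 in KO lungs and 7 of 8 in WT lungs, with median differences of 0.31 and 0.40. None was called in KO lungs, and 2 were called higher in WT lungs, against 5.77% and 5.48% of all genes. In KO lungs 4 had an unadjusted p under 0.05 by limma, against 25.7% of all genes. Uqcrh, the hinge protein beside cytochrome c1, had signals of 2567, 2692 and 2206 in KO HDM samples, against 1991, 1498 and 1875 in KO PBS samples. WT HDM samples had signals of 2650, 2982 and 3581, against 2312, 1832 and 1387 in WT PBS samples. All HDM samples lay above all PBS samples within each genotype. The difference was 0.48 ± 0.18 in KO (limma, adjusted p = 0.14) and 0.75 ± 0.18 in WT (adjusted p = 0.025). The WT call held in 16 of 24 alternatives and was lost without any 1 of WT HDM replicates 2 and 3 and WT PBS replicates 2 and 3 (adjusted p from 0.062 to 0.11). It was also lost, with an adjusted p of 0.28, when the probe set, of a kind that can match several transcripts, was replaced by the gene's other one.

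Uqcrq, another small subunit of complex III, had signals of 435, 422 and 339 in KO HDM samples, against 356, 309 and 301 in KO PBS samples. For WT HDM samples the signals were 415, 530 and 651, against 378, 341 and 257 in WT PBS samples. The KO groups overlapped and the WT groups did not. The difference was 0.30 ± 0.18 in KO (limma, adjusted p = 0.37) and 0.69 ± 0.18 in WT (adjusted p = 0.038). The WT call held in 8 of 24 alternatives and was lost without any 1 of 8 samples, KO HDM replicates 1 and 2, WT HDM replicates 2 and 3, KO PBS replicates 2 and 3 and WT PBS replicates 2 and 3 (adjusted p from 0.051 to 0.15). The gene's next probe set, used when those that can match several transcripts were left out, turned the WT difference to -0.15 (adjusted p = 0.81), so this gene's direction depends on the probe set. The member of complex III with the smallest p in KO lungs was Uqcrb, a ubiquinone-binding subunit, at 0.40 ± 0.14 (limma, adjusted p = 0.1), while its second probe set had -0.09 in KO. The core proteins Uqcrc1 and Uqcrc2 differed by 0.06 and 0.27 in KO and 0.14 and -0.01 in WT, and the Rieske iron-sulfur protein Uqcrfs1 by 0.54 and 0.61, with none called.

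Complex IV, cytochrome c oxidase, divided into tested general subunits with estimates above 0 and tissue isoforms without that pattern. All 9 tested general subunits were above 0 in both genotypes, with medians of 0.35 in KO and 0.37 in WT. Of these 1 was called higher in KO lungs and 0 in WT lungs, against 5.77% and 5.48% of all genes. Ndufa4, called in WT lungs and counted under complex I, is not among these 9. Cox7c, a general subunit under the filter on low signal, was below 0 in both genotypes, at -0.35 in KO and -0.78 in WT. Cox7a2l, which helps join complexes III and IV into supercomplexes, had signals of 851, 963 and 974 in KO HDM samples, against 469, 615 and 535 in KO PBS samples. The WT HDM samples had 730, 813 and 953, against 695, 558 and 628 in WT PBS samples. Neither pair of groups overlapped, and the gap was wider in KO. The difference was 0.78 ± 0.14 in KO (limma, adjusted p = 0.0041), kept in all 24 alternatives, and 0.40 ± 0.14 in WT (adjusted p = 0.1). The difference between the 2 effects was 0.38 ± 0.19 and was not called (limma, adjusted p = 0.88).

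The heme-associated core of complex IV is encoded in mitochondrial DNA, and among its nuclear-encoded partners Cox5a had the smallest p in WT lungs. Its signals were 1150, 1178 and 1236 in KO HDM samples, against 1065, 616 and 899 in KO PBS samples. They were 1334, 1152 and 1157 in WT HDM samples, against 900, 776 and 784 in WT PBS samples. Neither pair overlapped, yet the probe set missed the threshold at 0.50 ± 0.16 in KO (limma, adjusted p = 0.086) and 0.56 ± 0.16 in WT (adjusted p = 0.059). The general isoforms Cox4i1, Cox6a1, Cox6b1, Cox7a2 and Cox8a were not called, with differences from 0.05 (Cox6a1) to 0.49 (Cox7a2) in KO and from 0.20 (Cox4i1) to 0.41 (Cox7a2) in WT.

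The 6 tested tissue isoforms of complex IV were all below 0 in KO lungs, with a median of -0.31, and 3 of 6 were above 0 in WT lungs, with a median of 0.05. None was called in either genotype, and Cox7a1 in KO lungs was the 1 estimate with an unadjusted p under 0.05 by limma. Cox7a1, the isoform of striated muscle and brown fat, had signals of 31.3, 25.0 and 21.2 in KO HDM samples, against 75.3, 46.1 and 38.1 in KO PBS samples. Signals in WT HDM samples were 38.2, 77.2 and 69.6, against 51.5, 30.8 and 52.3 in WT PBS samples. The KO HDM samples were the lowest in the series apart from WT PBS replicate 2, which lay between them, and the WT groups overlapped. The difference was -0.84 ± 0.31 in KO (limma, adjusted p = 0.13) and 0.38 ± 0.31 in WT (adjusted p = 0.56).

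Cox8b, the isoform of the same tissues, had signals of 31.0, 26.5 and 41.6 in KO HDM samples, against 109, 50.6 and 41.5 in KO PBS samples. Among WT samples, those given HDM had 24.1, 215 and 260, against 134, 84.3 and 91.7 in WT PBS samples. WT HDM replicates 2 and 3 stood far above WT HDM replicate 1, which was the lowest of all 12. The same 2 samples were the highest for Ucp1, the uncoupling protein of brown fat, which had signals of 3.05, 3.33 and 3.72 in KO HDM, 2.26, 217 and 177 in WT HDM, 19.4, 3.16 and 2.62 in KO PBS and 36.7, 2.82 and 115 in WT PBS samples. They were also the highest for Adipoq, the fat cell hormone adiponectin, at 41.9, 27.8 and 52.6 in KO HDM, 31.1, 310 and 435 in WT HDM, 178, 217 and 75.1 in KO PBS and 290, 72.0 and 189 in WT PBS samples. Summed over the 6 adipose markers on the arrays, the signal was 270 to 402 in KO HDM, 357 to 1737 in WT HDM, 383 to 752 in KO PBS and 396 to 1150 in WT PBS samples, and none of the 6 was called between HDM and PBS. Ucp1 and Adipoq were picked from this list after their values were seen.

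Skeletal muscle transcripts were not raised in the same set of samples as Cox8b. WT HDM replicate 1 had raised Tnnc2 and the lowest Cox8b, and WT HDM replicate 3 had the highest Cox8b with a Tnnc2 signal of 6.59. Of 11 cardiac markers 6 were called lower by HDM in KO lungs and 2 in WT lungs, and their summed signal was 1550 to 2145 in KO HDM, 2305 to 2678 in WT HDM, 2789 to 5247 in KO PBS and 3133 to 3641 in WT PBS samples. Myh6, the cardiac myosin heavy chain, fell in both genotypes, with log2 differences of -1.44 ± 0.23 in KO and -1.22 ± 0.23 in WT (limma, adjusted p = 0.0026 and 0.0069). The part of fat and muscle tissue in the signals of Cox7a1 and Cox8b was not tested.

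**Figure D3:**
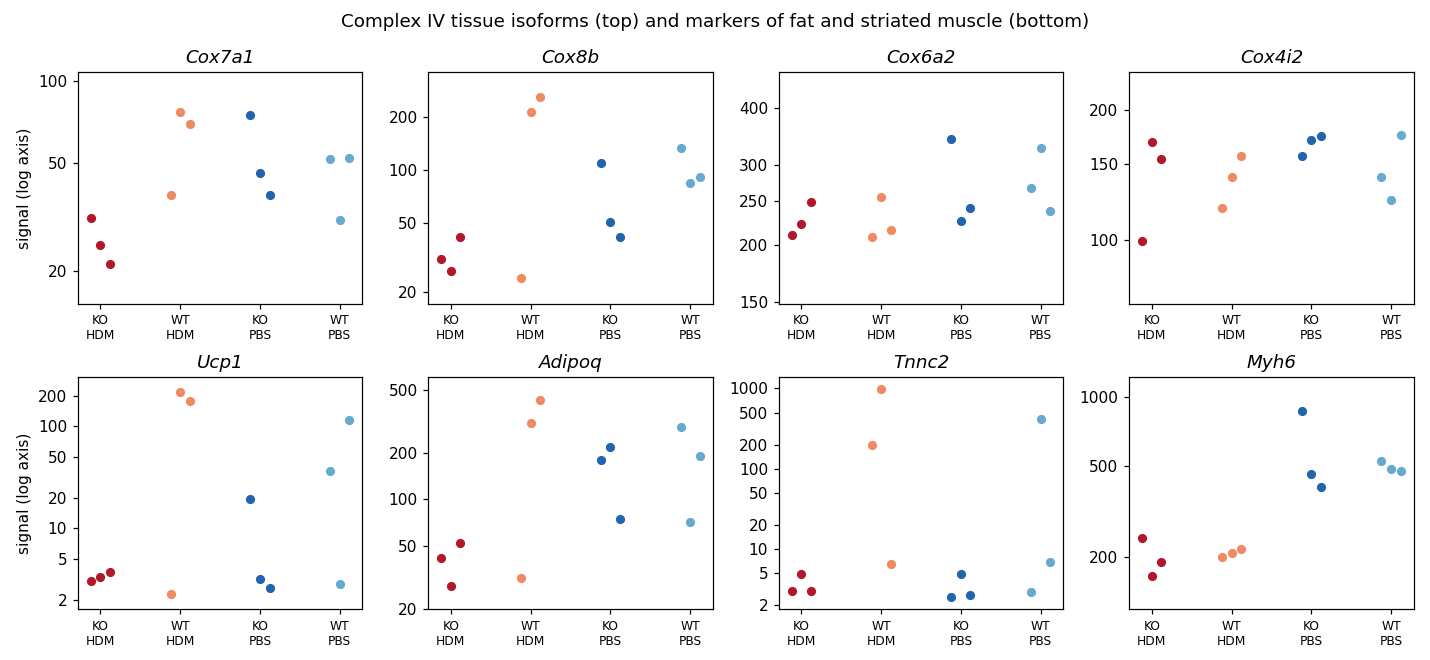
Signal of 4 tissue isoforms of complex IV (upper row) and of Ucp1, Adipoq, Tnnc2 and Myh6 (lower row) by group, with 1 point per sample on a log axis. WT HDM replicates 2 and 3 were the highest samples for Cox8b, Ucp1 and Adipoq, whereas Tnnc2 was high in WT HDM replicates 1 and 2 and WT PBS replicate 2.

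The other tissue isoforms had modest signal differences. Cox6a2, the third isoform of striated muscle, differed by -0.22 in KO and -0.28 in WT, and its signals ran from 209 to 342. Cox4i2, the isoform known from lung, differed by -0.27 in KO and -0.07 in WT, with signals of 99.4, 169 and 154 in KO HDM, 118, 140 and 157 in WT HDM, 156, 171 and 174 in KO PBS and 140, 124 and 175 in WT PBS samples. The groups overlapped in both genotypes. The testis isoforms Cox6b2 and Cox8c differed by -0.19 and -0.35 in KO and -0.42 and 0.63 in WT, with no call (limma, adjusted p from 0.27 to 0.63). A second probe set of Cox8c had 0.18 in KO and 0.03 in WT.

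Of 17 ATP synthase members 1 was called higher in KO lungs and 4 in WT lungs, against 5.77% and 5.48% of all genes. The median differences were 0.22 in KO and 0.30 in WT. By position in the enzyme, the 5 supernumerary subunits of its membrane part had medians of 0.50 in KO and 0.58 in WT, with all 5 above 0 in both. The 4 peripheral stalk subunits had 0.13 and 0.29, and the 3 genes for the proton-carrying c ring 0.16 and 0.22. The 5 subunits of the F1 head, not all of which are catalytic, had 0.16 and 0.13.

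Atp5md, a small membrane subunit also called DAPIT that is known for a role in pairing ATP synthases, had signals of 212, 197 and 222 in KO HDM samples, against 116, 132 and 131 in KO PBS samples. WT HDM samples had signals of 202, 208 and 268, against 141, 127 and 134 in WT PBS samples. Every HDM sample of both genotypes lay above every PBS sample, by a clear gap. The difference was 0.71 ± 0.14 in KO (limma, adjusted p = 0.0092) and 0.72 ± 0.14 in WT (adjusted p = 0.0086), and the WT call reached an adjusted p of 0.053 without the 2 samples of lowest actin ratio. Atp5l, subunit g of the membrane part, had signals of 541, 508 and 602 in KO HDM samples, against 376, 397 and 383 in KO PBS samples. For WT HDM samples the signals were 532, 611 and 809, against 372, 408 and 314 in WT PBS samples. Both pairs of groups were separate, and WT HDM replicate 3 was the highest sample. The difference was 0.50 ± 0.15 in KO, which was not called (limma, adjusted p = 0.063), and 0.81 ± 0.15 in WT (adjusted p = 0.0062), where the call was kept in all 24 alternatives.

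Of the peripheral stalk, which holds the F1 head in place, Atp5pb (subunit b) had signals of 1122, 977 and 958 in KO HDM samples, against 858, 794 and 807 in KO PBS samples. The WT HDM samples had 1052, 988 and 1113, against 771, 787 and 699 in WT PBS samples. No HDM sample overlapped a PBS sample in either genotype. The difference was 0.31 ± 0.10 in KO (limma, adjusted p = 0.081) and 0.48 ± 0.10 in WT (adjusted p = 0.012), and the WT call was lost without WT HDM replicate 3 (adjusted p = 0.053) and without the 3 samples in which Tnnc2 was raised, which left WT HDM replicate 3 as the 1 sample of its group (adjusted p = 0.086). Atp5h, subunit d of the same stalk, had signals of 1184, 1317 and 1315 in KO HDM samples, against 1245, 1352 and 1231 in KO PBS samples. Signals in WT HDM samples were 1399, 1328 and 1571, against 1043, 1219 and 1052 in WT PBS samples. The KO groups overlapped and the WT groups did not. The difference was -0.01 ± 0.10 in KO (limma, adjusted p = 0.98) and 0.37 ± 0.10 in WT (adjusted p = 0.049). The WT call was kept in 5 of 24 alternatives and was lost without any 1 sample other than WT PBS replicate 2 (adjusted p from 0.057 to 0.18). A second probe set of Atp5h had differences of 0.22 in KO and 0.24 in WT (limma, adjusted p = 0.29 in each) and an interaction of -0.02, so the contrast between the genotypes depends on the probe set. The catalytic head subunits Atp5a1 and Atp5b had differences of 0.16 and -0.21 in KO and 0.07 and -0.03 in WT, with no call.

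**Figure D4:**
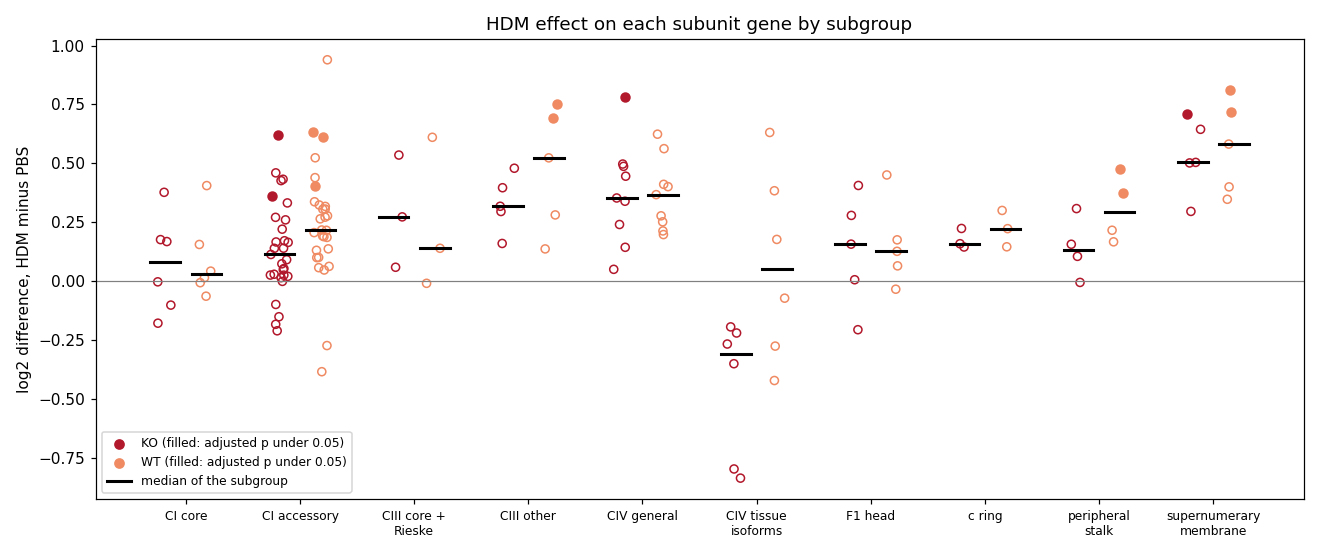
Log2 difference between HDM and PBS of each tested member (points) by position in its complex (x axis), for KO to the left and WT to the right, with filled points for members called by limma and black bars for the median. The supernumerary membrane subunits of the ATP synthase had medians of 0.50 in KO and 0.58 in WT, and the complex IV tissue isoforms were all below 0 in KO.

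Other probe sets of the same genes moved in the same direction where they were called. Of the 141 member probe sets that passed the filter, 11 were called higher in KO lungs, belonging to 9 genes, and 15 in WT lungs, belonging to 14 genes, and 0 were called lower, where 8.69% of all probe sets in KO and 7.83% in WT were called in either direction. Of these genes 8 had a called probe set in both genotypes, a count without a matching share of all genes. Through a second probe set, Cox5a, Cox7a2 and Ndufv2 were called in both genotypes, Atp5pb and Ndufb2 in KO, and Cox7a2l and Ndufc1 in WT, named here after their values were seen. Ndufb2, a membrane arm accessory subunit, had a probe set on the second array with a difference of 2.19 in KO (limma, adjusted p = 0.011), whereas its chosen probe set had 0.11 (adjusted p = 0.7), so its probe sets disagreed.

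No member's response to HDM was shown to differ between the genotypes. The interaction, the KO effect minus the WT effect, was called by limma for 0 of 75 members, against 0.173% of all genes, and 4 members had an unadjusted p under 0.05 (5.33%), against 6.18% of all genes. These 4 were all below 0 and comprised Atp5h at -0.38 ± 0.15, Ndufb4 at -0.65 ± 0.28, Cox7a1 at -1.22 ± 0.44 and Cox8c (limma, adjusted p = 0.8 for Atp5h, 0.85 for Ndufb4, 0.76 for Cox7a1 and 0.85 for Cox8c). The complex III member with the smallest p was Uqcrc2 at 0.28 ± 0.14 (limma, adjusted p = 0.88). Second probe sets gave an interaction of -0.02 for Atp5h, 0.15 for Cox8c and -0.01 for Uqcrc2. For the members called in both genotypes the interaction was 0.01 ± 0.16 for Ndufa1, -0.04 ± 0.14 for Ndufb5 and -0.01 ± 0.20 for Atp5md. Of the 75 members 23 had an interaction above 0 (30.7%), against 53% of all genes, with a median of -0.06. A difference that misses the threshold with 3 samples a group does not show that the genotypes respond alike.

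The genotypes were also compared within each treatment. After HDM, 0 of 75 members were called between KO and WT by limma, against 0.732% of all genes, and 3 had an unadjusted p under 0.05 (4%), against 9.99% of all genes. Cox7a1 had the smallest p of complex IV at -1.02 ± 0.31 (limma, adjusted p = 0.3). For the other complexes it was held by Atp5k, subunit e of the ATP synthase, at 0.41 ± 0.17, the complex I accessory subunit Ndufs4 at -0.35 ± 0.17 and Uqcrq at -0.40 ± 0.18 (limma, adjusted p = 0.53 for Atp5k, 0.61 for Ndufs4 and 0.59 for Uqcrq). The direction depends on the probe set for Atp5k, whose other probe sets had -0.57 (KO lower without overlap) and -0.10, for Ndufs4, whose others had 0.10 and -0.06, and for Uqcrq, whose others ran from -0.39 to 0.12. Without WT HDM replicate 1, Cox8b alone was called, lower in KO by a log2 difference of -2.62 (adjusted p = 0.011), the comparison then being with the 2 WT samples of highest fat signal. After PBS, 0 of 75 were called by limma, against 0.0207% of all genes, and 2 had an unadjusted p under 0.05 (2.67%), against 7.49% of all genes. These were Ndufb4 at 0.50 ± 0.20 and Cox8c at 0.66 ± 0.30 (limma, adjusted p = 0.67 for Ndufb4 and 0.72 for Cox8c), and the second probe set of Cox8c had -0.23, the opposite direction. No overlap with KO higher was seen for 1 member after HDM (1.33%), Atp5k, against 9.62% of all genes, and with KO lower for 3 (4%), Atp5h, Cox7a1 and Ndufb9, against 7.35% of all genes. After PBS KO lay higher without overlap for 3 members (4%), Atp5h, Atp5pb and Ndufb4, against 6.57% of all genes, and lower for 1 (1.33%), Uqcrc2, against 5.83% of all genes. KO estimates were above 0 for 24 of 75 members after HDM (32%), against 53.6% of all genes, and for 41 of 75 after PBS (54.7%), against 50.1% of all genes, with medians of -0.06 and 0.01. The actin ratio, though not the Gapdh ratio, was lower in all KO HDM than in all WT HDM samples. Smooth muscle markers differed strongly between these groups (7 of 9 called lower in KO). B cell and plasma cell markers summed to 13753 to 15983 in KO HDM and 6681 to 10357 in WT HDM samples, with 0 of 5 called. Of 10 skeletal muscle markers 0 were called, and 7 were lower in KO at an unadjusted p under 0.05 by limma. The part of RNA integrity or of these cells and tissues in the comparison after HDM was not tested.

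Lists of related genes placed the members' shift beside the rest of mitochondrial and biosynthetic metabolism. Of 4 complex II genes 0 were called in KO and 1 in WT, Sdhd, a membrane anchor of succinate dehydrogenase, at 0.61 ± 0.19 in KO and 0.68 ± 0.19 in WT (limma, adjusted p = 0.065 and 0.045). Of 16 electron carriers and subunits outside the naming rule 0 were called in KO and 1 in WT, Cycs, which encodes cytochrome c. Its signals were 597, 467 and 416 in KO HDM samples against 543, 430 and 572 in KO PBS samples, and 721, 714 and 744 in WT HDM samples against 500, 493 and 478 in WT PBS samples. The WT groups were clearly apart and the KO groups overlapped, with differences of -0.07 ± 0.14 in KO and 0.56 ± 0.14 in WT (limma, adjusted p = 0.83 and 0.03). The interaction was called for 0 of these 16 genes, so a difference between the genotypes was not shown. Of 39 assembly factors 0 were called in either genotype, with medians of 0.03 in KO and 0.13 in WT, and 3 in KO and 4 in WT had an unadjusted p under 0.05 by limma. Of 76 mitochondrial ribosomal proteins 2 were called higher and 1 lower in KO (Mrpl57 and Mrpl13, and Mrps5 at -1.19) and 1 higher in WT (Mrpl38), with medians of 0.16 and 0.14.

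The cytosolic ribosome, which makes all the nuclear-encoded subunits, was also measured. Of 41 tested genes 11 were called higher and 0 lower in KO, with a median of 0.38, and 3 higher and 1 lower in WT, with a median of 0.24. The interaction was called for 0 of the 41. The largest called rise was that of Rpl37, a protein of the large subunit, at 0.87 ± 0.11 in KO and 0.53 ± 0.11 in WT (limma, adjusted p = 0.00057 and 0.013). The 16 citric acid cycle genes had medians of -0.06 in KO and 0.05 in WT and the 15 fatty acid oxidation genes -0.10 and 0.00, with 0 called by limma in either genotype. At an unadjusted p under 0.05, 2 citric acid cycle genes in each genotype and 0 fatty acid oxidation genes were past it. In glycolysis 1 of 16 genes was called higher in both genotypes, Ldha, the lactate dehydrogenase A chain, at 0.55 ± 0.14 in KO and 0.57 ± 0.14 in WT (limma, adjusted p = 0.029 and 0.027). Pfkfb3, a regulator of glycolytic flux, was called lower in WT at -0.80 ± 0.21 (limma, adjusted p = 0.038). In KO lungs 0 of the 16 were called lower, and the lowest estimate among them was -0.71. The interaction was called for 0 of the 16, so a fall limited to WT was not shown.

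Among 21 regulators of mitochondrial genes 0 were called higher. Called lower in KO were Epas1, the oxygen-sensing factor HIF-2 alpha, at -0.56 ± 0.12, and Gabpa, the DNA-binding part of the ETS factor GABP, at -0.71 ± 0.20 (limma, adjusted p = 0.011 for Epas1 and 0.045 for Gabpa), and in WT they had -0.42 ± 0.12 and -0.41 ± 0.20 (adjusted p = 0.051 for Epas1 and 0.27 for Gabpa). Of 8 mitochondrial antioxidant and uncoupler genes 1 was called, Gpx1, the glutathione peroxidase that removes hydrogen peroxide, at 0.31 ± 0.12 in KO and 0.75 ± 0.12 in WT (limma, adjusted p = 0.15 and 0.0024). None of the 8 had a called interaction. ND5, a complex I subunit encoded in mitochondrial DNA and named here after its values were seen, had differences of 0.16 in KO and 0.05 in WT with overlapping groups.

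Markers of lung cell types moved with treatment in both genotypes. Of 10 macrophage markers 8 were called higher by HDM in KO lungs and 8 in WT lungs, and their summed signal was 13289 to 14566 in KO HDM, 13354 to 16333 in WT HDM, 6767 to 8862 in KO PBS and 7635 to 8180 in WT PBS samples. Of 9 cell cycle genes 8 were called higher in each genotype, with sums of 3716 to 3878 in KO HDM, 2632 to 3132 in WT HDM, 1063 to 1432 in KO PBS and 1116 to 1549 in WT PBS samples. Both sums were higher in every HDM sample than in every PBS sample, as the respiratory chain mean was in KO. Of 5 B cell and plasma cell markers 4 were called higher in KO and 5 in WT. In the other direction, 5 of 7 endothelial markers were called lower in KO and 6 of 7 in WT, with sums of 5124 to 5392 in KO HDM, 4996 to 5511 in WT HDM, 7283 to 8213 in KO PBS and 7432 to 8311 in WT PBS samples. Alveolar type 1 markers were called lower for 3 of 7 in KO and 4 of 7 in WT, ciliated cell markers for 1 of 10 in KO and 2 of 10 in WT, and club cell markers for 2 of 5 in KO and 3 of 5 in WT. Smooth muscle markers differed between the genotypes: 3 of 9 were called lower by HDM in KO and 4 of 9 higher in WT, 4 of 9 had a called interaction and 7 of 9 were called lower in KO than in WT after HDM. Their summed signal was 2883 to 3118 in KO HDM, 6406 to 7402 in WT HDM, 3625 to 4242 in KO PBS and 3458 to 4369 in WT PBS samples. The part of these marker changes in the members' differences was not tested.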

How the data were processed

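The authors deposited linear intensity values, 1 per probe set and array, with a trimmed mean of 150 (2% cut from each end) on each of the 24 arrays (software not given in the sources used here). This scaling was kept. The values were converted to log2(intensity + 7) for set A and log2(intensity + 11) for set B, so fold changes of low signals are understated. Control probe sets were left out, as were those whose mean lay below percentile 30 of set A (33.9) or set B (43.4), leaving 31496 probe sets and 14480 genes. Gene names came from the platform annotation, and 9 matching probe sets with several genes were left out. Of the chosen probe sets 71 lie on set A and 6 on set B.

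Limma 3.58.1 in R 4.3.3 fitted 1 model with 4 group means (8 residual degrees of freedom) and an intensity trend, and p-values were adjusted by Benjamini-Hochberg over all probe sets within each comparison, with 0.05 as threshold for a call. Alternatives covered the pseudocount, the filter, scaling, the variance model, the probe set of a gene, the replicate number as a block and leaving out samples. Named were the called members, the member with the smallest p of a complex with none, the tissue isoforms, up to 3 called genes of each related list and leading genes of marker lists that moved. The members and lists were chosen with earlier results of these data known. The number of arrays limits the precision, and no detection calls were used.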

Additional observations from a re-analysis of the deposited data

How the results depend on the processing

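Each comparison was recomputed under 24 alternatives. The KO count of 4 was 9 with the mean of all probe sets of a gene and 3 to 7 with 1 sample left out, and the KO median stayed between 0.12 and 0.22 there. The WT count of 9 called members was 5 with median centring, 5 without an intensity trend, 3 without the 2 samples of lowest actin ratio, and 3 to 11 when each sample was left out in turn. The WT median of 0.25 was 0.13 to 0.33 with 1 sample left out. The interaction median was -0.15 to -0.0019 with 1 sample left out, and the count was 0 in all alternatives run. For KO against WT after HDM the median was -0.13 to 0.0046 with 1 sample left out, and the count was 0 to 1. For KO against WT after PBS the median was -0.049 to 0.073 with 1 sample left out and the count was 0 throughout. All these counts stand without the calls over all genes under the same alternatives, so a change in them is not particular to the members. Leaving out the 3 samples with skeletal muscle signal left WT HDM replicate 3, the highest of all 12, as the 1 sample of its group, which was assumed to vary like the others. Set against that sample, the WT count was 5 and the medians were 0.46 in WT, -0.27 for the interaction and -0.24 for KO against WT after HDM. These values say nothing on the part of muscle tissue. The WT difference of Uqcrq was -0.15 when probe sets that can match several transcripts were left out. Over the named members' values 566 kept direction and side of the threshold, 74 lost the call, 7 gained it and 1 turned its direction. The causes were not tested. Same-numbered samples showed little likeness: 1 of 18 such pairs had a correlation of deviations over 0.1. Of the 12 samples 5 correlated best with one of their own number. The labels do not say whether the numbers pair samples, and with 3 samples a group this check cannot exclude it. With the replicate number as a block 3 members were called in KO, 8 in WT and 0 in the other comparisons. The precision is limited by 3 samples a group and, for Cox7a1 and Cox8b, by signals that lay near the filter in many samples.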
